A study of Homo sapiens with 15 samples.

Results

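The polyamine metabolism genes were followed through the sublines of VCaP, an established cell line of prostate cancer (PC). The 10 members were listed by gene symbol, ODC1, AMD1, SRM, SMS, SAT1, SMOX, PAOX, OAZ1, OAZ2 and AZIN1, and were found through their Ensembl identifiers. The list was chosen with earlier results of these data known. They are 10 of the 58381 genes counted, and all 10 were among the 19621 genes that passed the filter on low counts. RNA-seq had been done on 5 sublines with 3 replicate libraries each, 15 libraries in all. VCaP-T was grown in RPMI with charcoal-treated serum (DCC-FBS), L-glutamine, A/A and 10 nM testosterone for 7 months and is labelled androgen sensitive. VCaP-CT is VCaP-T kept for 10 further months at 0.1 nM testosterone, a model of androgen deprivation, and is labelled resistant, as are the sublines made from it. Growth of VCaP-CT under 10 µM enzalutamide (ENZ), an antiandrogen drug, until it recovered gave VCaP-CT-ER. VCaP-CT-BR came from VCaP-CT under bicalutamide, an older antiandrogen, and VCaP-CT-BR-ER was taken from bicalutamide to ENZ. The sample labels differ from this account of the study in that they list 10 nM testosterone for the 10 later months too, and mention ENZ for VCaP-CT-BR as well. Each subline is described as derived once, so drug, time in culture and derivation cannot be told apart. The labels do not say whether the 3 replicates were separate cultures, so the p-values measure the spread between these libraries, which may be technical.

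Polyamines are small, positively charged molecules that bind nucleic acids and are needed for growth, and the prostate makes and secretes more of them than most tissues, above all spermine. ODC1 (ornithine decarboxylase) forms putrescine. AMD1 decarboxylates S-adenosylmethionine to supply the aminopropyl groups with which SRM makes spermidine and SMS makes spermine. SAT1 acetylates spermidine and spermine for export or for oxidation by PAOX, and SMOX oxidises spermine directly. The antizymes OAZ1 and OAZ2 bind ODC1 and send it to the proteasome, and AZIN1, a relative of ODC1 without its activity, holds antizyme back.

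The antizymes carry the pathway's own sensor in their sequence: the frame of the start codon ends early at a stop, and the full protein is made only when the ribosome slips by a base there, which polyamines favour. In the reference transcripts this stop came after 68 codons in OAZ1 and after 32 codons in OAZ2, while the annotated proteins run to 228 and 189 codons. The windows lie in coding exons at chr19:2271428-2271457 (plus strand) and chr15:64691501-64691530 (minus strand) of GRCh38, and the capitals mark the stop codon.
OAZ1: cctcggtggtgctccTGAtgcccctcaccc
OAZ2: cctctgtggtgctccTGAtgcccctcaccc
Shifting of the frame leaves no trace in gene counts, so the values below for OAZ1 and OAZ2 are levels of RNA only.

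SMS, on the X chromosome (chrX:21940573-21994835, plus strand), has 2 intron-less copies annotated as processed pseudogenes, ENSG00000213080 on chr1:160894980-160896076 (98.4% identity over 1098 bases) and ENSG00000232389 on chr6:70608234-70609334 (97.1% over 1101 bases). The first junction between coding exons of SMS is shown beside the copies, because a copy without introns carries the spliced sequence of SMS. The SMS stretch joins chrX:21940844-21940873 to chrX:21967196-21967225, and its capitals mark the bases on either side of the junction. The copies lie at chr1:160894999-160895058 (plus strand) and chr6:70609256-70609315 (minus strand), and their capitals mark the bases that differ from SMS.
SMS: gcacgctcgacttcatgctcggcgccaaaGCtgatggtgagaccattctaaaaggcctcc
ENSG00000213080: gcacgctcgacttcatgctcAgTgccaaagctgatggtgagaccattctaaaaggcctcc
ENSG00000232389: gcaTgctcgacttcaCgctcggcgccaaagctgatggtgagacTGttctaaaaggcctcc
The copies differed from SMS at 2 and 4 of these 60 bases. Junctions 1 to 9 between coding exons were compared in this way. ENSG00000213080 differed at 0 to 6 bases and was identical to SMS at junctions 7 and 8. ENSG00000232389 differed at 0 to 4 bases and was identical at junction 4. Together they were credited with counts equal to 50.2 to 58.4% of the SMS counts in every library. The level of SMS is therefore uncertain, since reads of near-identical sequence may have been assigned to either, and the copies are taken up again beside the SMS results. For the other members, genes with at least 90% identity over 200 bases held at most 0.103% of the member's counts, apart from a readthrough gene sharing exons with PAOX that had at most 1 count. Among overlapping genes MAILR, on the strand opposite to AZIN1, had 0.298 to 1.91% of the AZIN1 counts. Counting was done without strand, so fragments over exon bases shared by both genes were left out of both.

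Promoter sequence from RefSeq (GRCh38.p14, from 250 bases before to 50 after each start) was held for 7 members, and SMOX, PAOX and AZIN1 were not used here. The letters CACGTG, read on both strands and known as an E-box that MYC and its relatives bind, were found in promoters of ODC1 and SRM and in 7.26% of all 35116 promoters. In ODC1 a pair of matches lay in the first intron of the main transcript, around an inner start site, at chr2:10447990-10448053 (minus strand), and in SRM a match lay upstream of the gene at chr1:11060200-11060229 (minus strand). The capitals mark the matches.
ODC1: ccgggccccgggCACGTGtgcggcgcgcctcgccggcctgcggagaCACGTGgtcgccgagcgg
SRM: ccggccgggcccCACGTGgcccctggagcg
The letters GGGCGG were in 45.0% of all promoters and in those of ODC1, AMD1, SRM, SMS, OAZ1 and OAZ2, but not of SAT1. A match is a description of letters and no site, and no match covers only this window.

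Library totals lay between 33665716 and 46935279 counted fragments, at which 3 counts, taken as the floor, correspond to 0.0639 to 0.0891 CPM (counts scaled to library size). Floors cover counting error only, whereas the 95% intervals come from the edgeR fit and include the spread between libraries. The levels below are CPM scaled by TMM, and a gene is called changed at an edgeR adjusted p under 0.05. The 8 luminal and VCaP markers (KLK3, KLK2, HOXB13, FOXA1, KRT8, KRT18, ERG and TMPRSS2) were detected in every library, and their summed level was 21600 to 22400 CPM in VCaP-T but 10100 to 11000 CPM in VCaP-CT. This sum mainly follows KLK2 (3270 to 14800 CPM over the libraries) and KLK3 (13.5 to 3620 CPM). The other luminal markers reached at most 1050 CPM each, so a lower sum does not mean that each marker fell. Leukocyte markers had at most 6 counts. Of 4 fibroblast markers COL1A2 had 0 counts in every library, DCN at most 22, COL1A1 at most 309 and LUM at most 9301. Of 3 endothelial markers CDH5 had at most 1 count, PECAM1 at most 128 and VWF at most 562.

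All 10 members were detected in every library, from 33 counts of PAOX upwards. Levels per kilobase used the merged exons of all annotated transcripts of a gene. The transcripts expressed may be shorter, so the order between genes is approximate. By this measure SAT1 led in VCaP-T with 280.1 CPM per kb, ahead of AMD1 with 194, ODC1 with 139 and OAZ1 with 132. In VCaP-CT-ER the order had changed, and SMS led with 221 CPM per kb, ahead of OAZ1 with 164, AMD1 with 122 and SAT1 with 92.0. PAOX was lowest in all sublines, at 0.491 to 0.779 CPM per kb. Across sublines the mean level of SMS spanned 4.91-fold, that of SMOX 4.66-fold and that of SAT1 3.38-fold, whereas OAZ2 spanned 0.22, SRM 0.27 and OAZ1 0.33 on the log2 scale.

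**Figure D1:**
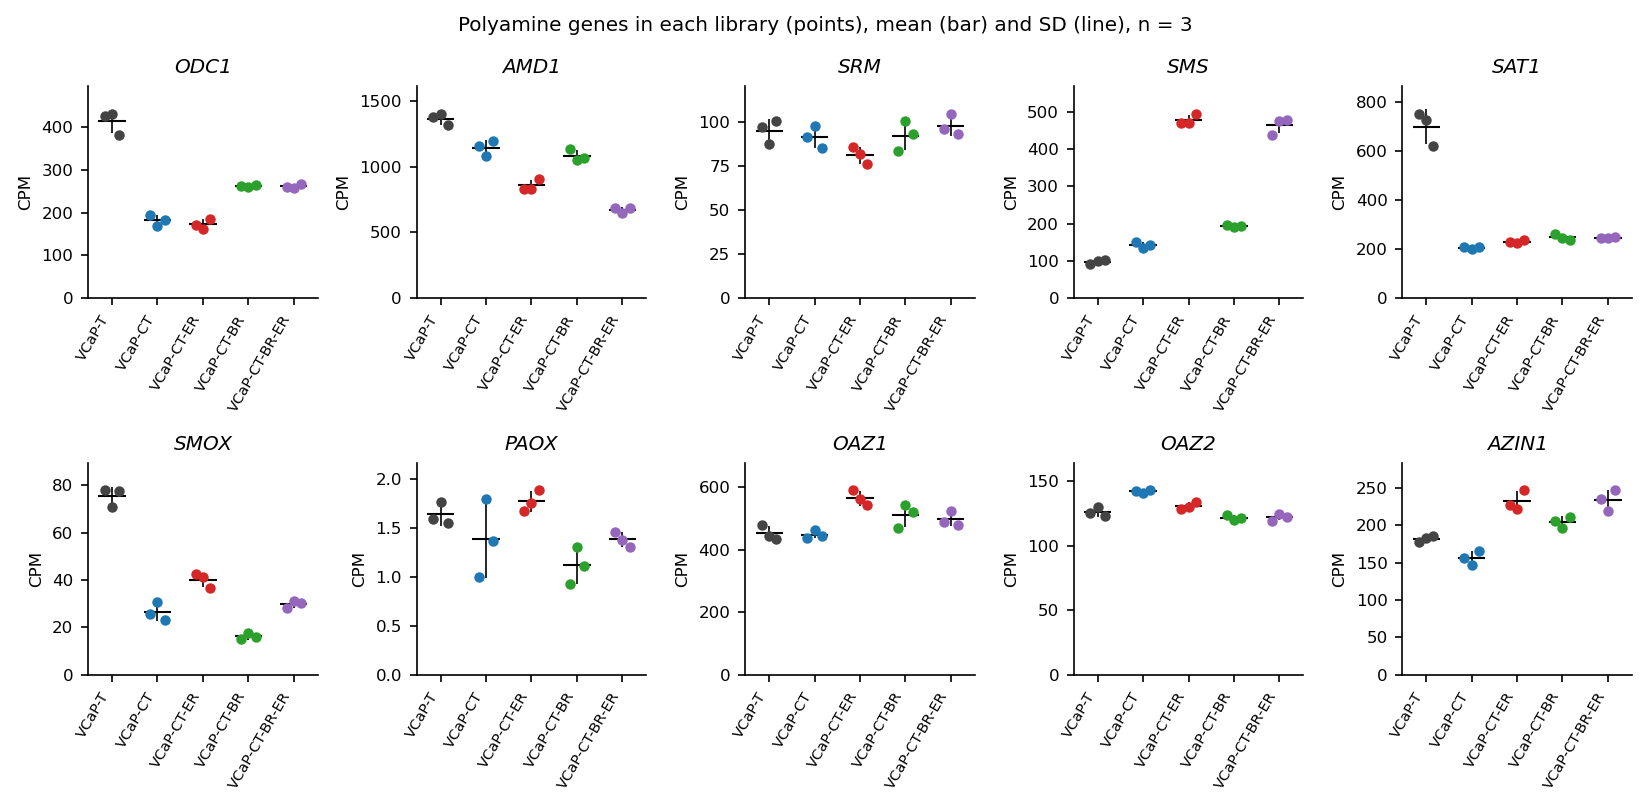
Each panel plots the level of a polyamine gene in CPM (TMM scaled, linear axis from 0) against subline, with the 3 libraries as points, their mean as a bar and the SD as a vertical line. SAT1, SMOX and ODC1 are highest in VCaP-T, and SMS is highest in the 2 ENZ-treated sublines, where its libraries lie between 438 and 494 CPM.

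The first step, from VCaP-T to VCaP-CT, addressed the change under low testosterone. SAT1 and SMOX of catabolism and ODC1, the entry enzyme of synthesis, fell at least 2-fold, while SMS rose 1.47-fold. ODC1 was at 427, 431 and 381 CPM in VCaP-T but at 193, 169 and 184 CPM in VCaP-CT. All 3 VCaP-T libraries were above all 3 of VCaP-CT, and ODC1 fell by 1.18 on the log2 scale (SE 0.058, 2.27-fold lower, adjusted p = 1.87e-13). SAT1 was at 753, 727 and 619 CPM in VCaP-T against 209.9, 202 and 207 CPM in VCaP-CT. Its groups did not overlap either, and SAT1 fell by 1.76 (SE 0.059, 3.39-fold lower, adjusted p = 2.79e-16). SMOX went from 78.0, 70.8 and 77.5 CPM to 25.9, 30.6 and 23.0 CPM, a fall by 1.51 on the log2 scale (SE 0.086, 2.85-fold lower, adjusted p = 2.07e-12). PAOX, which works on the products of SAT1, was at 1.64 ± 0.114 CPM before this step and 1.39 ± 0.399 CPM after it (SD, n = 3), and its change was not called (log2 −0.23, SE 0.184, adjusted p = 0.275).

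On the side of synthesis, AMD1 fell from 1364 ± 45.6 to 1144 ± 56.4 CPM (SD, n = 3, log2 −0.25, adjusted p = 0.000162), while SRM was at 95.2 ± 6.77 and 91.7 ± 6.18 CPM, with overlapping groups and no call (adjusted p = 0.525). SMS rose from 91.0, 99.0 and 102 CPM to 149.7, 135 and 143 CPM, 1.47-fold (log2 0.55, SE 0.052, adjusted p = 7.21e-09). Of the regulators, OAZ2 rose by 0.17 and AZIN1 fell by 0.22 on the log2 scale. OAZ1 was at 452 ± 23.0 and 448 ± 11.7 CPM (SD, n = 3), and the 95% interval of its log2 change ran from −0.12 to 0.10.

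In all, 2 members rose and 5 fell at this step, beside 33.1% and 32.2% of all genes tested. At least 2-fold falls were called for 3 members (ODC1, SAT1 and SMOX), against 12.2% of all genes, and no member rose as much. The median log2 change of the members was −0.23 and that of all genes tested 0.03. The summed level of the luminal markers fell at the same step, as given above, and the endothelial markers PECAM1, VWF and CDH5 together summed to 13.2 to 16.3 CPM in VCaP-T against 8.16 to 9.31 CPM in VCaP-CT. Their part in these changes was not tested. In bulk libraries a lower level in each cell and fewer cells with the RNA cannot be told apart.

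The step from VCaP-CT to VCaP-CT-ER addressed resistance to ENZ and is called the first ENZ step. SMS showed the largest change of the members: it was at 149.7, 135 and 143 CPM in VCaP-CT but at 469, 468 and 494 CPM in VCaP-CT-ER. The groups lay far apart, and SMS rose 3.34-fold (log2 1.74, SE 0.053, adjusted p = 6.55e-17). SRM, the synthase before it, was at 91.6, 97.9 and 85.6 CPM and then at 85.8, 81.7 and 76.2 CPM. Its groups overlapped, and its log2 change of −0.17 (SE 0.072) was called at an adjusted p of 0.0409. That SRM call was lost in 16 of 23 alternatives (adjusted p = 0.0509 to 0.22), among them the omission of any of 10 libraries. AMD1 fell from 1144 to 857 ± 44 CPM (log2 −0.42, SE 0.051, adjusted p = 3.88e-07).

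ODC1 did not pass the test at this step. It was at 172, 162 and 186 CPM in VCaP-CT-ER, which overlapped VCaP-CT (log2 −0.07, 95% interval −0.18 to 0.04, adjusted p = 0.302). Catabolic genes rose by less than SMS: SMOX went to 42.4, 41.2 and 36.5 CPM, 1.51-fold above VCaP-CT (log2 0.60, SE 0.086, adjusted p = 4.21e-06), and SAT1 to 228, 224 and 237 CPM, 1.11-fold above (log2 0.16, adjusted p = 0.0253). The SAT1 call was lost without VCaP-CT replicate 2 (adjusted p = 0.0607) and without VCaP-CT-ER replicate 3 (adjusted p = 0.0568). PAOX was at 1.77 ± 0.107 CPM (SD, n = 3) and was not called (adjusted p = 0.1). AZIN1 rose 1.48-fold to 232 ± 13.3 CPM (log2 0.57, adjusted p = 1.31e-08) and OAZ1 1.26-fold to 564 ± 24.1 CPM (log2 0.33, adjusted p = 2.55e-05). OAZ2 was at 131 ± 2.80 CPM, 1.09-fold lower, and its call (adjusted p = 0.0189) was lost in 7 of 23 alternatives, among them leaving out VCaP-CT replicate 1 (adjusted p = 0.0582), VCaP-CT replicate 3 (0.0905), VCaP-CT-ER replicate 1 (0.117) or VCaP-CT-ER replicate 2 (0.0812).

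At this step 5 members rose and 3 fell, beside 29.6% and 31.2% of all genes tested. SMS alone of the 10 changed at least 2-fold, a rise that 7.96% of all genes tested showed. The median log2 change was 0.24 for the members and −0.02 for all genes tested. The summed luminal markers were at 10600 to 11500 CPM in VCaP-CT-ER, overlapping VCaP-CT, and the summed endothelial markers were at 0.0745 to 0.269 CPM, below VCaP-CT. The part of these markers in the changes was not tested.

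**Figure D2:**
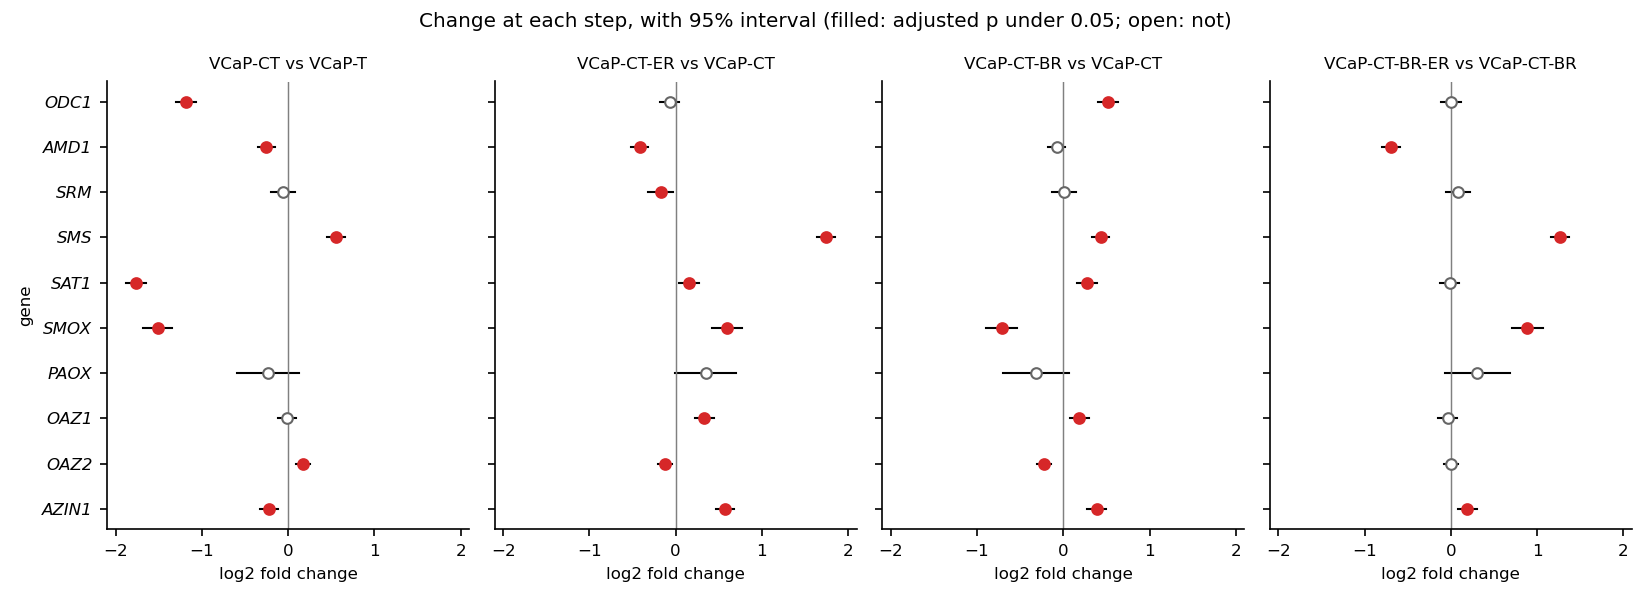
The log2 fold change of each gene (horizontal axis) is plotted at the 4 steps, with the 95% interval as a line, filled points for an adjusted p under 0.05 and open points otherwise. SMS lies to the right of 0 at all 4 steps and reaches 1.74 and 1.26 at the 2 ENZ steps, whereas PAOX is open at every step.

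The step from VCaP-CT to VCaP-CT-BR addressed bicalutamide and shares the VCaP-CT libraries with the comparisons before it. ODC1 was at 261, 260.0 and 263 CPM in VCaP-CT-BR, above all VCaP-CT libraries, and rose 1.44-fold (log2 0.52, SE 0.058, adjusted p = 1.89e-07). SMS was at 196, 189.6 and 193 CPM and rose 1.35-fold (log2 0.43, adjusted p = 5.27e-07). SMOX went the other way, to 14.9, 17.5 and 16.1 CPM, the lowest level of the 5 sublines, and was 1.64-fold lower than in VCaP-CT (log2 −0.71, SE 0.091, adjusted p = 1.30e-06). SAT1 was at 262, 247 and 238 CPM (log2 0.27, adjusted p = 0.00048). The X chromosome genes around SMS and SAT1 rose at this step too. Within 2 Mb of SMS 10 of 12 tested genes, SAT1 among them, were called higher and 0 lower, with a median log2 change of 0.42. Within 1 Mb of SAT1 9 of 11 were higher and 0 lower, with a median of 0.44. The part of the region in the 2 rises was not tested. AZIN1 rose by 0.39 and OAZ1 by 0.19 on the log2 scale, and OAZ2 fell by 0.22. The OAZ1 call was lost without VCaP-CT-BR replicate 2 (adjusted p = 0.051). AMD1, SRM and PAOX were not called, with log2 changes of −0.08, 0.01 and −0.31. In all 5 members rose and 2 fell, beside 26.1% and 27.0% of all genes tested, and none of the 10 changed 2-fold. The luminal markers summed to 6840 to 7170 CPM in VCaP-CT-BR and the endothelial markers to 0.881 to 1.57 CPM, both below VCaP-CT, and the fibroblast markers to 24 to 25 CPM, above it. Their part in the changes was not tested.

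The second ENZ step, into VCaP-CT-BR-ER, brought ENZ to the cells kept on bicalutamide. SMS went from 196, 189.6 and 193 CPM to 438, 474 and 478 CPM, with no overlap, and rose 2.40-fold (log2 1.26, SE 0.052, adjusted p = 4.12e-14). SMOX rose 1.85-fold to 28.1, 31.1 and 30.5 CPM (log2 0.89, SE 0.09, adjusted p = 7.31e-08). AMD1 fell 1.62-fold, from 1136, 1051 and 1066 CPM to 682, 645 and 684 CPM (log2 −0.69, SE 0.051, adjusted p = 5.16e-10). AZIN1 rose by 0.19 on the log2 scale (adjusted p = 0.00697). ODC1 was at 261 ± 1.64 and 262 ± 4.48 CPM (SD, n = 3), with a 95% interval of the log2 change from −0.11 to 0.12. SAT1, OAZ1, OAZ2, SRM and PAOX were not called either. Thus 3 members rose and 1 fell, beside 21.2% and 21.7% of all genes tested, and SMS alone changed at least 2-fold, a rise shown by 4.21% of all genes tested. The luminal markers summed to 5260 to 5480 CPM after this step and the endothelial markers to 0.121 to 0.217 CPM, both below VCaP-CT-BR, and their part in the changes was not tested.

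The sizes of the ENZ steps in VCaP-CT and after bicalutamide were compared directly by the difference of their log2 changes. This difference was called for 5 members. SMS rose less after bicalutamide (difference −0.48, SE 0.073, adjusted p = 1.41e-05), from a higher start, and ended at 463 ± 22.0 CPM in VCaP-CT-BR-ER beside 477 ± 15 CPM in VCaP-CT-ER (SD, n = 3), levels that did not differ by the test (log2 −0.04, 95% interval −0.14 to 0.06, adjusted p = 0.53). AMD1 fell more after bicalutamide (difference −0.28, SE 0.072, adjusted p = 0.00292). AZIN1 (difference −0.38, adjusted p = 0.00039) rose less after bicalutamide. OAZ1 (difference −0.37, adjusted p = 0.000515) rose at the first ENZ step but was at 510.5 ± 37.7 CPM before the second and 497 ± 22.9 CPM after it (SD, n = 3). SRM had a difference of 0.26 (SE 0.101, adjusted p = 0.0388), which lost its call in 10 of 23 alternatives (adjusted p = 0.0549 to 0.143). The differences of SMOX (0.29, adjusted p = 0.058), SAT1 (−0.17, adjusted p = 0.0935) and OAZ2 (0.12, adjusted p = 0.0945) were not called. In this comparison 1 member was higher and 4 were lower, beside 25.2% and 24.5% of all genes tested. Over the tested genes within 1 Mb, the median difference was −0.29 around AMD1, 0.26 around SRM and −0.37 around SMS. It was 0.29 around OAZ1 and −0.06 around AZIN1. The part of the surroundings was not tested.

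The order of the 5 levels differed between members. For SMS the order from low to high was VCaP-T, VCaP-CT, VCaP-CT-BR, VCaP-CT-BR-ER and VCaP-CT-ER, and all neighbours but the last pair differed. For SAT1, VCaP-CT was lowest and VCaP-T highest, with VCaP-CT-ER, then VCaP-CT-BR-ER, then VCaP-CT-BR between them at 229.8 to 249 CPM, and neighbours within these 3 did not differ by the test (adjusted p = 0.153 and 0.879). For SMOX the order was VCaP-CT-BR, VCaP-CT, VCaP-CT-BR-ER, VCaP-CT-ER and VCaP-T, and VCaP-CT and VCaP-CT-BR-ER did not differ by the test (adjusted p = 0.103). ODC1 fell into 3 levels, lowest in VCaP-CT-ER and VCaP-CT, next in the 2 bicalutamide-treated sublines and highest in VCaP-T. AMD1 was lowest in VCaP-CT-BR-ER, then in VCaP-CT-ER, then in VCaP-CT-BR and VCaP-CT, which did not differ by the test, and highest in VCaP-T. The 5 levels of PAOX lay between 1.12 and 1.77 CPM, on 33 to 84 counts a library, and no neighbours in its order differed by the test. Further apart in that order, PAOX was 1.58-fold higher in VCaP-CT-ER than in VCaP-CT-BR (log2 0.66, adjusted p = 0.00389) and 1.46-fold lower in VCaP-CT-BR than in VCaP-T (log2 −0.55, adjusted p = 0.0128).

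Ratios of CPM per kb within a library, which do not depend on the scaling between libraries, are given without a test. The ratio of ODC1 to OAZ1 plus OAZ2 was 0.939 ± 0.048 for VCaP-T, 0.413 ± 0.036 for VCaP-CT, 0.323 ± 0.03 for VCaP-CT-ER, 0.537 ± 0.036 for VCaP-CT-BR and 0.55 ± 0.031 for VCaP-CT-BR-ER (SD, n = 3). No library of VCaP-T overlapped another subline in this ratio. The ratio of SMS to SRM was 0.9 ± 0.087 for VCaP-T, 1.37 ± 0.14 for VCaP-CT and 5.18 ± 0.47 for VCaP-CT-ER, and went from 1.85 ± 0.2 to 4.16 ± 0.3 at the second ENZ step. The lowest of the 6 libraries of the ENZ-treated sublines was at 3.98 and the highest of the other 9 at 2.06. The ratio of SAT1 to SRM plus SMS was 2.96 ± 0.41 for VCaP-T. It went from 0.722 ± 0.02 to 0.349 ± 0.0038 at the first ENZ step and from 0.724 ± 0.048 to 0.372 ± 0.014 at the second. These are ratios of RNA levels and not of rates of breakdown or synthesis, and SMS enters them without its copies. AMD1 to SRM stood at 1.86 ± 0.17 in VCaP-CT-BR-ER, below all other libraries, and at means of 2.86 to 3.89 in the other sublines. AZIN1 to OAZ1 plus OAZ2 stayed between means of 0.163 and 0.227.

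**Figure D3:**
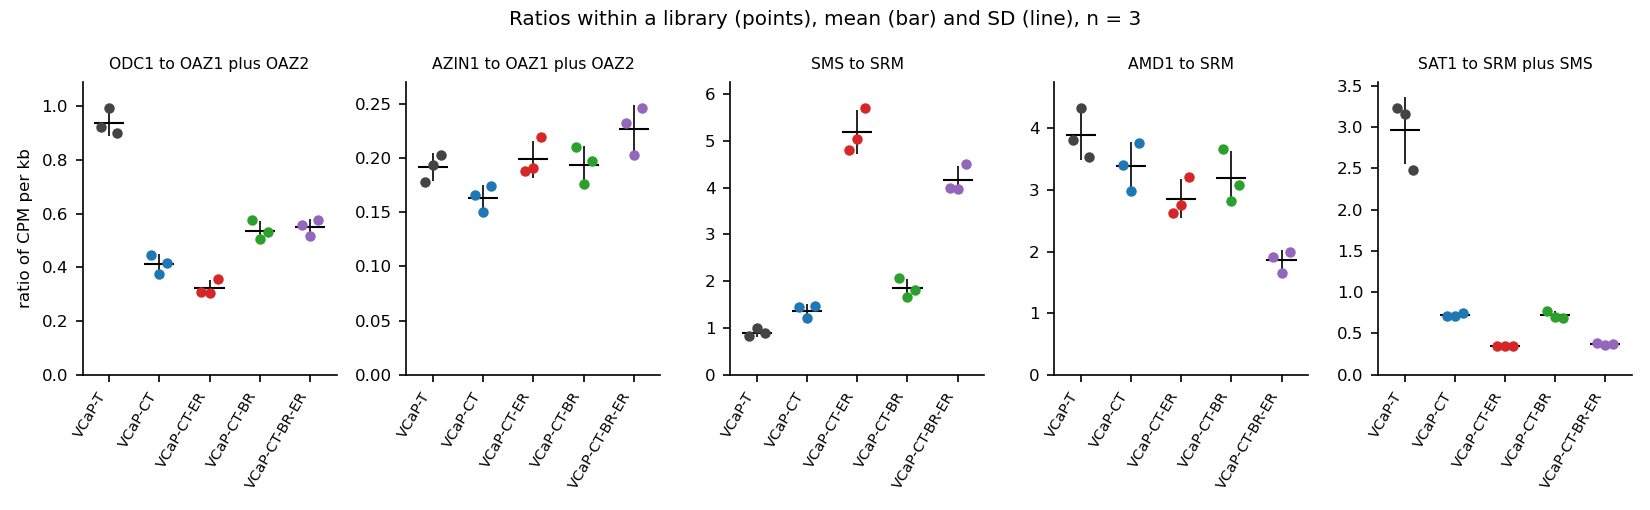
Each panel plots a ratio of CPM per kb of exon within a library (vertical axis, linear from 0) by subline, with 3 libraries as points, the mean as a bar and the SD as a line. The SMS to SRM ratio separates the ENZ-treated sublines (3.98 to 5.7) from the other libraries (0.821 to 2.06).

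The SMS result was examined beside its copies and its neighbourhood. ENSG00000213080 rose by 1.88 on the log2 scale (SE 0.059) at the first ENZ step and by 1.24 (SE 0.058) at the second, and ENSG00000232389 by 1.79 and 1.21. With the counts of SMS and both copies summed, a choice made after the data were seen, the log2 changes at these steps were 1.79 (SE 0.052, adjusted p = 2.96e-17) and 1.26 (SE 0.051, adjusted p = 3.16e-14). The summed level was 152 ± 7.45 CPM for VCaP-T, went from 216 ± 11.3 to 746 ± 21.9 CPM at the first ENZ step and from 300.5 ± 9.28 to 717 ± 28 CPM at the second (SD, n = 3). The fold changes of SMS thus differed little with and without the copies. The summed level is higher by construction, and fragments that map to several places are missing from it.

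Within 1 Mb of SMS 3 other genes were tested, CNKSR2, YY2 and MBTPS2. Their log2 changes at the first ENZ step were −1.18, 0.44 and 0.42, and at the second 0.27, 0.07 and −0.06, below SMS at both steps. SAT1 lies 1.82 Mb further along the chromosome and changed by 0.16 and −0.01. MAP7D2, 1.91 Mb away on the other side, changed by 2.34 at the first ENZ step, more than SMS, and by 0.85 at the second. Gene copy number was not measured here. The summed level of the fibroblast markers rose at both ENZ steps. It was 6.21 to 7.94 CPM over VCaP-T and VCaP-CT and reached 184 to 216 CPM after the first ENZ step. At the second it went from 24 to 25 CPM to 217 to 250 CPM. These rises were those of LUM, as no other fibroblast marker exceeded 7.27 CPM in any library. LUM ranged from 0.494 to 248 CPM over the libraries and COL1A1 from 0.397 to 7.27 CPM, while DCN reached at most 0.498 CPM and COL1A2 had 0 counts. The part of these markers in the SMS change was not tested.

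**Figure D4:**
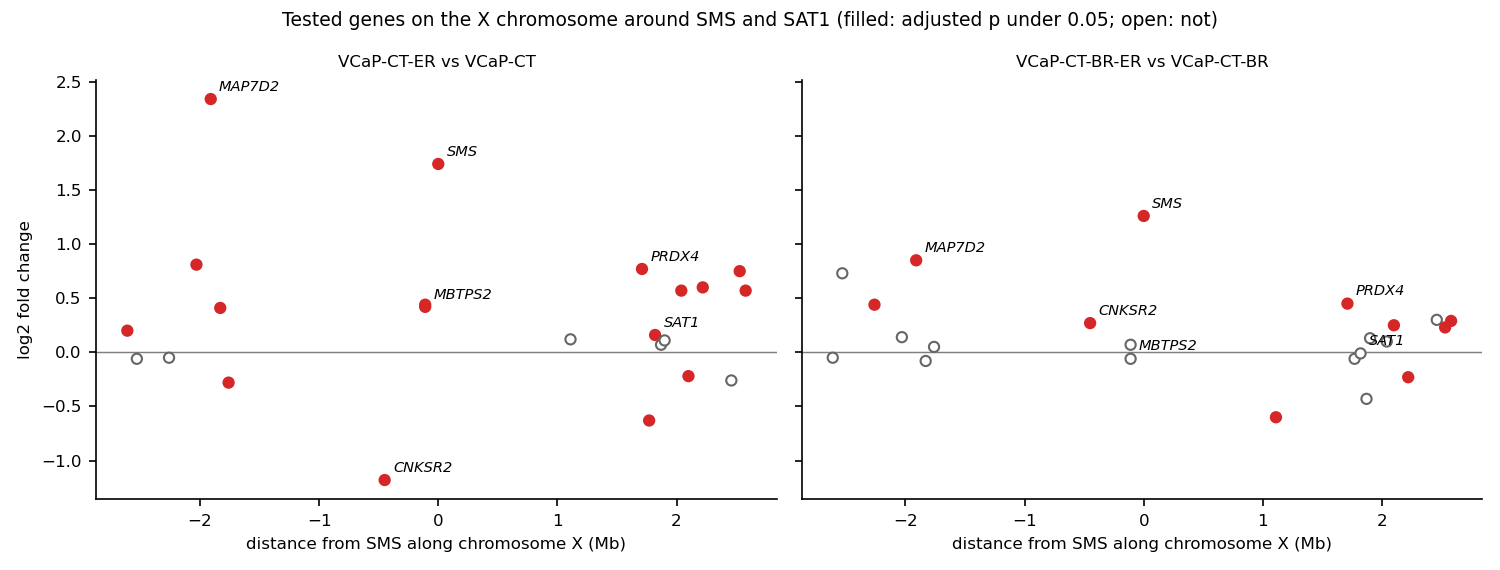
The log2 fold change of tested genes on the X chromosome (vertical axis) is plotted against their distance from SMS in Mb, at the steps into VCaP-CT-ER (left) and VCaP-CT-BR-ER (right), with filled points for an adjusted p under 0.05. The window reaches 2.82 Mb to either side and holds 23 tested genes, SMS among them. SMS is at 1.74 and 1.26, MAP7D2 at 2.34 and 0.85, and PRDX4 at 0.77 and 0.45.

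The neighbours of other members were described in the same way. In VCaP-CT against VCaP-T, 15 of 22 tested genes within 1 Mb of ODC1 were called lower and 1 higher, with a median log2 change of −0.52 beside −1.18 for ODC1. Around SAT1, 8 of 11 were called higher and 1 lower, with a median of 0.47 beside −1.76 for SAT1, and around SMOX 15 of 28 were higher and 7 lower, with a median of 0.33 beside −1.51. Of all genes tested 33.1% were higher and 32.2% lower at this step. Around AMD1, 8 of 19 were lower and 0 higher at the second ENZ step, with a median of −0.35 beside −0.69 for AMD1. The shares of all genes tested were 21.7% lower and 21.2% higher there. At another step each, AMD1 and ODC1 moved the other way from the median around them. AMD1 changed by −0.42 at the first ENZ step beside a median of 0.10, with 4 neighbours higher and 4 lower. ODC1 changed by 0.52 into VCaP-CT-BR beside −0.13, with 6 higher and 4 lower. Over all genes tested 29.6% were higher and 31.2% lower at the first ENZ step, and 26.1% and 27.0% into VCaP-CT-BR. At the remaining steps ODC1 changed by −0.07 beside −0.18 (first ENZ step) and 0.00 beside 0.11 (second ENZ step). AMD1 changed by −0.25 beside −0.06 (VCaP-CT against VCaP-T) and −0.08 beside 0.00 (VCaP-CT-BR).

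The 3 genes whose log2 CPM was most like that of the widest-ranging members are given as a description, over 15 libraries that share the 5 sublines. For SMS the first were its own copies (Pearson r = 0.997 and 0.996), followed by GRIN3A (0.994), a glutamate receptor subunit. For SMOX they were SLC8B1 (0.994), STIM1 (0.992), the calcium sensor of the endoplasmic reticulum, and SSTR5-AS1 (0.988). For SAT1 they were GOT1 (0.994), an aspartate aminotransferase, FRMD3 (0.993) and CLIC4 (0.992). By Spearman's rho the lists for SMS shared 0 genes and those for SMOX and SAT1 shared 1 gene each.

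Around the 10 members 29 further genes are described, of which 27 passed the filter and ATP13A4 and SLC22A2 did not. From VCaP-T to VCaP-CT 5 of the 27 rose and 13 fell, beside 33.1% and 32.2% of all genes tested, with a median log2 change of −0.17 beside 0.03. OAT, which interconverts ornithine and a precursor of proline and glutamate, fell from 25.7 ± 1.6 to 1.37 ± 0.12 CPM (SD, n = 3, log2 −4.23, adjusted p = 9.90e-16). MAT1A, a synthetase of S-adenosylmethionine, fell from 7.23 ± 0.24 to 0.685 ± 0.25 CPM (log2 −3.40, adjusted p = 4.07e-12). ARG2, the mitochondrial arginase that makes ornithine, rose 2-fold (log2 1.02, adjusted p = 4.31e-10), from 12.9 ± 0.86 to 26.1 ± 2.2 CPM. Of the 5 transport genes tested 3 fell and 0 rose, and of the 9 genes of precursor supply 5 fell and 2 rose, beside the same shares of all genes.

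At the step into VCaP-CT-ER 10 of the 27 rose and 10 fell, beside 29.6% and 31.2% of all genes tested, with a median of 0.00. SLC18B1, a vesicular polyamine transporter, rose from 1.55 ± 0.099 to 12.6 ± 0.094 CPM (log2 3.02, adjusted p = 4.30e-17), after a fall from 6.78 ± 0.083 CPM in VCaP-T. OAT rose to 11 ± 1.3 CPM (log2 3.00, adjusted p = 9.72e-13). ARG1, the cytosolic arginase, fell by 1.34 and AOC1, a diamine oxidase, by 1.19 on the log2 scale, both under 0.6 CPM in VCaP-CT. Into VCaP-CT-BR 8 rose and 6 fell, beside 26.1% and 27.0% of all genes tested. The rises were led by SLC18B1 (log2 1.68, to 4.96 ± 0.13 CPM) and OAT (1.17), and the largest falls were those of SLC22A3, a cation transporter (log2 −1.48), and AZIN2, an antizyme inhibitor (−1.02). Into VCaP-CT-BR-ER 7 rose and 9 fell, beside 21.2% and 21.7%, and SLC18B1 alone changed 2-fold (log2 1.06, to 10.3 ± 0.24 CPM). The medians at these last steps were 0.03 and −0.14, beside −0.02 and 0.00 for all genes tested. SLC18B1 was thus higher in both ENZ-treated sublines than in the cells they came from, as the members SMS, SMOX and AZIN1 were. The same held for OAT (log2 3.00 and 0.54), MTAP (0.34 and 0.23) and MRI1 (0.29 and 0.44), all called at both steps. SLC18B1 also rose without ENZ, into VCaP-CT-BR, as given above.

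**Figure D5:**
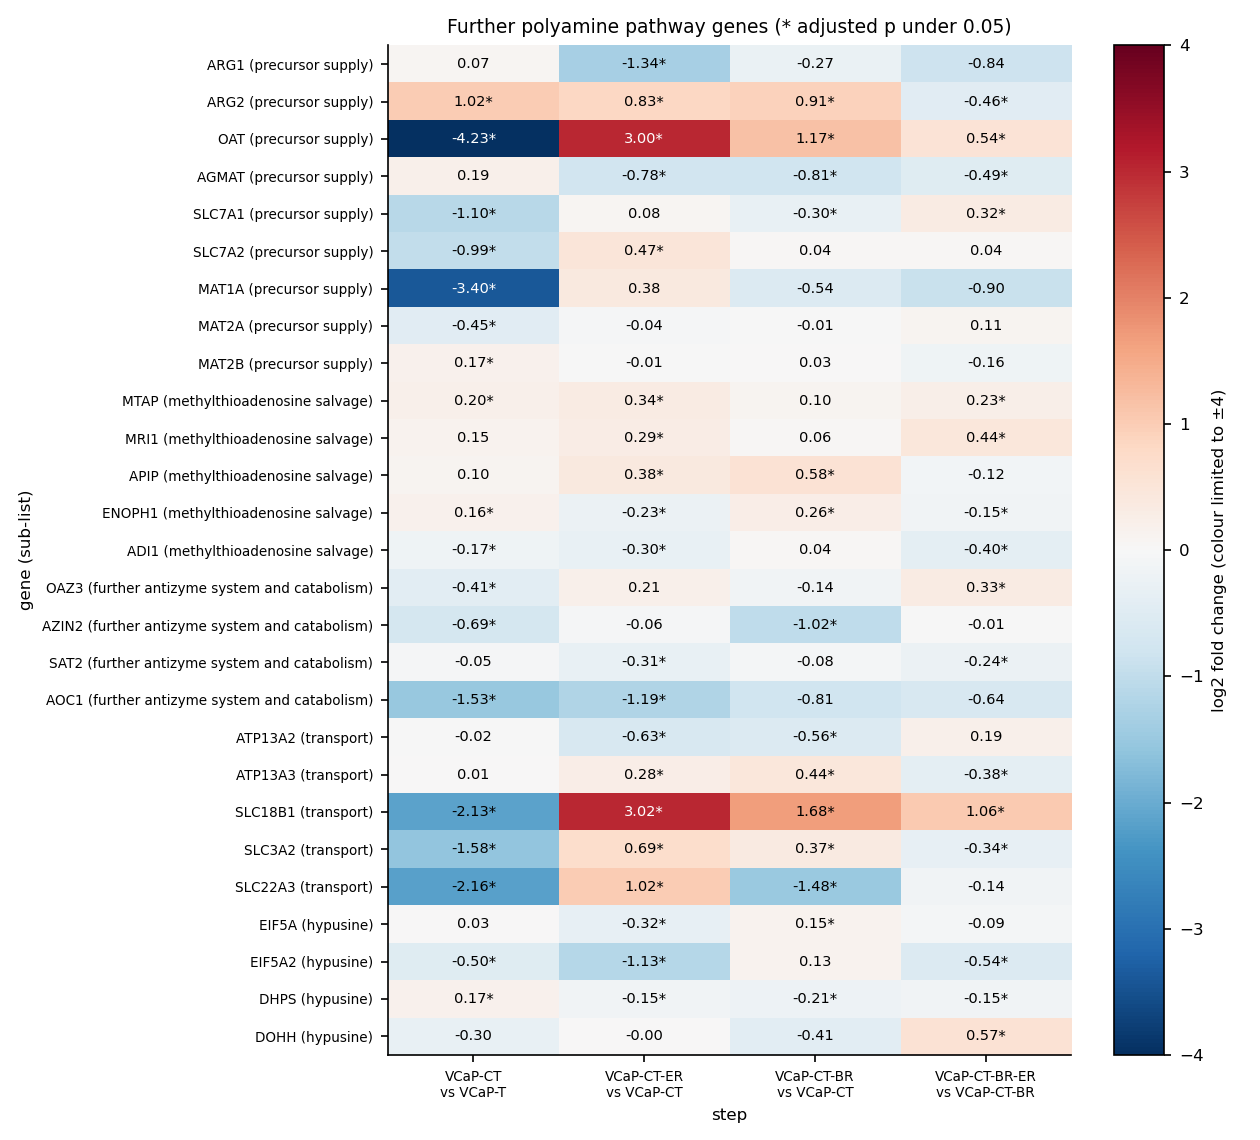
Rows are the 27 further genes of the pathway that passed the filter, with their sub-list in brackets, columns are the 4 steps, and colour and number give the log2 fold change (colour limited to ±4), with a star for an adjusted p under 0.05. OAT (−4.23, then 3.00) and SLC18B1 (−2.13, then 3.02) turn from a fall at the first step to a rise at the first ENZ step.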

How the data were processed

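Counts of fragments per gene, as deposited by the authors, were used for all 15 libraries. The authors aligned paired-end reads to GRCh38 with STAR 2.5.4b and counted them over exons with featureCounts 1.6.2 on GENCODE release 28, without regard to strand and without fragments that map to several places or overlap several genes. Overlapping genes shared 6.9% of the exon bases of PAOX and OAZ1, 7.2% of OAZ2 and 5.0% of AZIN1, and such fragments are missing from these members. Symbols came from GENCODE release 44 and matched 57754 of 58381 genes.

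Tests were done with edgeR 4.0.16 in R 4.3.3 (filterByExpr at a minimum count of 10, TMM, quasi-likelihood F tests with subline as the factor on all 15 libraries, Benjamini-Hochberg adjustment over 19621 genes), as no test of these libraries is described for the study. The biological coefficient of variation was 0.061. The script was tested on simulated data. DESeq2 1.42.0, other scalings and filters, the sublines compared alone, a replicate block and the omission of each library were alternatives. Depth is given in the text as library totals and floors, and replicates of a subline differed by more than counting noise (mean chi-square per gene 3.02 to 17.8).

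Named genes were all members, the pathway genes that rose or fell most at each step (at most 2 each way, at least 2-fold), and the 3 genes most like SMS, SMOX and SAT1 (average log2 CPM at least 1). Genes around a result (CNKSR2, YY2, MBTPS2, PRDX4, MAP7D2, MAILR, LUM, MTAP, MRI1) were named with their values known. The members and lists were chosen with earlier results of these data known. Copies were found with blastn against the GENCODE release 44 transcripts. A gene of the pathway list, a luminal marker and a promoter motif are not reported here. The other experiments of the study were not analysed here.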

Additional observations from a re-analysis of the deposited data

Results flagged for a closer look

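The difference between the ENZ steps, the change after bicalutamide minus the change in VCaP-CT, passed the edgeR test for 5 of 10 members on the log2 scale (1 higher, 4 lower), beside 25.2% of all genes tested that were higher and 24.5% that were lower. It was −0.28 for AMD1, 0.26 for SRM, −0.48 for SMS, −0.37 for OAZ1 and −0.38 for AZIN1. The medians of the tested genes within 1 Mb of them were −0.29, 0.26, −0.37, 0.29 and −0.06 in the same order. Around SRM the median was −0.01 within 0.5 Mb. Groups of 3 libraries were not tested for outlying libraries.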

How the results depend on the processing

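Of 50 log2 changes (10 members in 4 steps and the difference of the ENZ steps), 40 kept their side of the threshold in all 23 alternatives and 10 did not; none reversed, and the cause was not tested. Those 10 were PAOX (3 steps), SRM and SAT1 (the VCaP-CT-ER step and the difference), OAZ2 (the VCaP-CT-ER step), OAZ1 (the VCaP-CT-BR step) and SMOX (the difference). The SRM call at the VCaP-CT-ER step was lost without any of VCaP-CT replicates 1 and 2, VCaP-CT-BR replicate 3, VCaP-CT-BR-ER replicates 1, 2 and 3, VCaP-CT-ER replicates 2 and 3, and VCaP-T replicates 1 and 3 (adjusted p = 0.0509 to 0.22), and its difference without any of VCaP-CT replicates 1 and 2, VCaP-CT-BR replicates 1 and 3, VCaP-CT-BR-ER replicates 1 and 2, and VCaP-CT-ER replicates 2 and 3 (0.0549 to 0.143). Calls were gained for PAOX without VCaP-CT replicate 2 (0.0433 against VCaP-T, 0.0133 for VCaP-CT-ER) or replicate 1 (0.0424 for VCaP-CT-BR), for the SAT1 difference without VCaP-T replicate 3 (0.0304), and for the SMOX difference without VCaP-CT replicate 3 (0.0111), VCaP-CT-BR replicate 2 (0.0352) or VCaP-CT-ER replicate 1 (0.0475). A call rule of at least 2-fold left 3, 1, 0, 1 and 0 members and 4084, 3442, 1954, 1565 and 3106 genes in the 4 steps and the difference. Leaving out a library gave 7 to 8, 6 to 8, 6 to 8, 4 and 4 to 6 members called, and 12185 to 13059, 11198 to 12105, 9167 to 10566, 7361 to 8675 and 9029 to 9817 genes. Other scalings moved the median of all genes by at most 0.058 (log2, library totals). Same-numbered libraries of different sublines were on average no more alike than others. Their deviations from the subline means correlated by −0.007 on average over 30 same-numbered pairs and by 0.002 over other pairs. Single same-numbered pairs ranged from −0.714 to 0.746, so some deviations were shared between sublines in a way that the numbers do not capture. The cause was not tested. With the number as a block 7, 8, 7, 4 and 5 members were called, as without it, and no member's call changed. At 33 to 84 counts, PAOX limits what its comparisons can show. The median around ODC1 in VCaP-CT against VCaP-T was −0.86 and −0.37 within 0.5 and 2 Mb.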
